A study of Mus musculus with 50 samples.

Results

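This comparison is between mouse embryonic stem cells that lack G9a, Suv39h1, Suv39h2 and Setdb1 (G9a;Suv39h1/2;Setdb1-QKO, here QKO) and cells that lack G9a and Setdb1 (G9a;Setdb1-DKO, here DKO). Its members are the 12821 genes, of 24412 listed, that reached 1 TPM in at least 2 of the 4 libraries of these groups. TPM gives the share of a library's transcripts that a gene takes, corrected for gene length and scaled to a fixed total. The strain of all cells is given as TT2, the cells are named SG (DKO) and 3S1G (QKO), and both groups carry the label OHT, which the labels do not explain. There were 2 libraries per group. The labels do not call them separate cultures, so p-values measure only the spread between these libraries. Because each genotype came as 1 named line, the effect of losing Suv39h1 and Suv39h2 cannot be told apart from any other difference between the lines. Reference groups in the same table were the control line, Setdb1-KO, Suv39h1/2-DKO, Suv39h1/2;Setdb1-TKO, G9a-KO (line SG, labelled NT), G9a;Suv39h1/2-TKO (line 3S1G, labelled NT) and Dux-KO:G9a;Suv39h1/2;Setdb1-QKO (here Dux-KO QKO). A second table held DKO and QKO lines without endogenous Dux that carry a Tet-on Dux transgene, at dox labels 0 and 1, whose unit the labels do not give.

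Methylation of lysine 9 on histone H3 marks silent chromatin. G9a, encoded by Ehmt2, deposits the dimethyl form in euchromatin, Setdb1 deposits the trimethyl form at retroviral elements and imprinted regions, and Suv39h1 and Suv39h2 deposit the trimethyl form at pericentromeric repeats. In embryonic stem cells these enzymes hold down germline genes, retroviruses and the genes of the 2-cell embryo, many of which are switched on by the homeobox factor Dux. A small share of cultured stem cells enters a 2-cell-like state, seen by Zscan4 and the retrovirus MERVL.

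Before any gene is compared, 1 chromosome stood apart. Members on chromosome 14 had a median log2 fold change (QKO over DKO, on the log2(TPM + 1) scale) of -0.49, whereas the medians of the other autosomes lay between -0.07 and 0.07 and that of the X chromosome was -0.11. The shift ran along the chromosome: every 10-megabase stretch with 10 or more members had a median between -0.65 and -0.39. Against the control line and relative to the other autosomes, the chromosome 14 median was -0.46 in G9a;Suv39h1/2-TKO, -0.37 in QKO and -0.46 in Dux-KO QKO, the 3 groups of the first table with 3S1G in their names, and 0.09 in DKO. In the SE-line groups Suv39h1/2-DKO and Suv39h1/2;Setdb1-TKO it was -0.02 in the first table, but between -0.51 and -0.45 in the second, where the 3S1G-line groups lay between -0.52 and -0.46. Whether this reflects the copy number of the chromosome was not tested. Of the gene lists below, the 2-cell, primitive endoderm and metalloproteinase lists change in their counts of calls without chromosome 14, and those values are given beside them. In each of the 4 libraries 12456 to 12704 genes reached 1 TPM. Defining stem cell genes (Pou5f1, Sox2, Nanog, Zfp42, Esrrb) summed to 4115 to 4148 TPM in DKO and 4045 to 4384 TPM in QKO. Within that sum Pou5f1 was lower in both QKO libraries than in both DKO libraries, and Sox2, Nanog, Zfp42 and Esrrb were higher. Nanog, for example, stood at 248 and 306 TPM in DKO and at 457 and 432 TPM in QKO. Fibroblast feeder markers summed to 2.13 to 2.62 TPM in DKO and 3.32 to 4.64 TPM in QKO. The mean log2 level of 12 small nucleolar RNA host genes, whose spliced RNAs are unstable, was 5.31 and 5.58 in DKO and 5.76 and 5.97 in QKO, so the groups did not overlap in it, and its part in the results was not tested. TPM tables carry no read depth, so the depth behind each value is unknown.

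**Figure D1:**
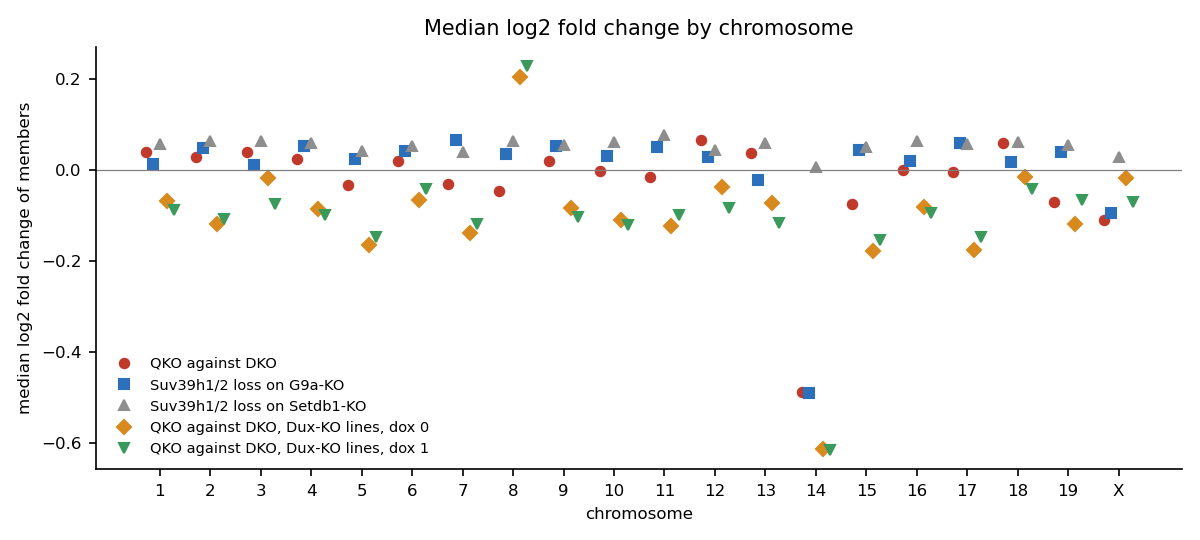
Median log2 fold change (vertical axis, log2 scale) of the members on each chromosome (horizontal axis) for 5 comparisons, each with its own symbol. Chromosome 14 sits at -0.49 in QKO against DKO while the other autosomes lie between -0.07 and 0.07.

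The targeted genes were read first. Ehmt2, which encodes G9a, stood at 83.6 and 91.1 TPM in the control libraries, at 7.38 and 7.47 TPM in DKO and at 17.7 and 16.7 TPM in QKO. Its remaining transcript was therefore higher in QKO (log2 fold change 1.11, SE 0.13, adjusted p = 4.53e-05, limma with Benjamini-Hochberg adjustment over all genes tested, as in every adjusted p below). Suv39h1 stood at 21.3 and 24.9 TPM in DKO and at 11.5 and 11.1 TPM in QKO, a log2 fold change of -0.96 (SE 0.13, adjusted p = 0.000117) that fell just short of the size needed for a call. Suv39h1 was called lower with a pseudocount of 0.1 (log2 fold change -1.02) and without DKO replicate 1 (-1.07). Suv39h2 measured 14.4 and 19.11 TPM in DKO and 13.3 and 16.2 TPM in QKO, which overlapped. Setdb1, lost in both groups, measured 25.8 and 32.5 TPM in DKO and 28.9 and 26.8 TPM in QKO, against 48.8 and 53.2 TPM in the control libraries. The labels do not state which part of each gene was removed, so a gene-wide TPM does not check a deletion of single exons.

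A small share of the members differed between QKO and DKO, in both directions. Calls required an adjusted p under 0.05 and a log2 fold change of 1 or more in size. By this rule 202 members were higher in QKO (1.58% of those tested) and 248 were lower (1.93%), with a median log2 fold change over all members of -0.01. At an adjusted p below 0.05 and any size, 1286 were higher and 1495 lower. Without chromosome 14, 201 were higher and 209 lower. The count of falls ran from 200 without QKO replicate 2 to 315 without QKO replicate 1, and with a pseudocount of 0.1, which gives weakly expressed genes larger fold changes, the count of rises was 375. Of the members, 11905 reached 1 TPM in all 4 libraries. In 215 only the 2 QKO libraries did, and 26 of these were called. In 179 only the 2 DKO libraries did, and 60 of these were called. Both sets passed the filter through 1 group, and their counts support nothing about the direction. Just inside the filter lay Col11a2, whose second-highest library was at 1.00002 TPM, and just outside lay Col26a1 at 0.99912 TPM.

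A larger share of the called genes than of all members was below 1 TPM without the knockouts. In the control line, whose libraries did not enter this comparison, 71 of the 202 genes that rose (35.1%) and 128 of the 248 that fell (51.6%) were below 1 TPM, against 9.78% of all members. The X chromosome held 57 of the 248 falls (23.0%), against 3.92% of members, and 5 of the 202 rises. Of those 57 X-linked genes, 50 were below 1 TPM in the control line, with medians of 0.0368 TPM there, 14.2 TPM in DKO and 3.18 TPM in QKO. Chromosome 14 held 39 of the falls and 1 of the rises, 1810041H14Rik. Promoters of the called genes were poor in CpG dinucleotides: in the 180 bases around the RefSeq start (150 before, 30 after, build GRCm38.p6), the median number of CpG was 5 for the 134 risen and 5 for the 170 fallen genes with an entry, and 14 for the 9716 members with one.

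**Figure D2:**
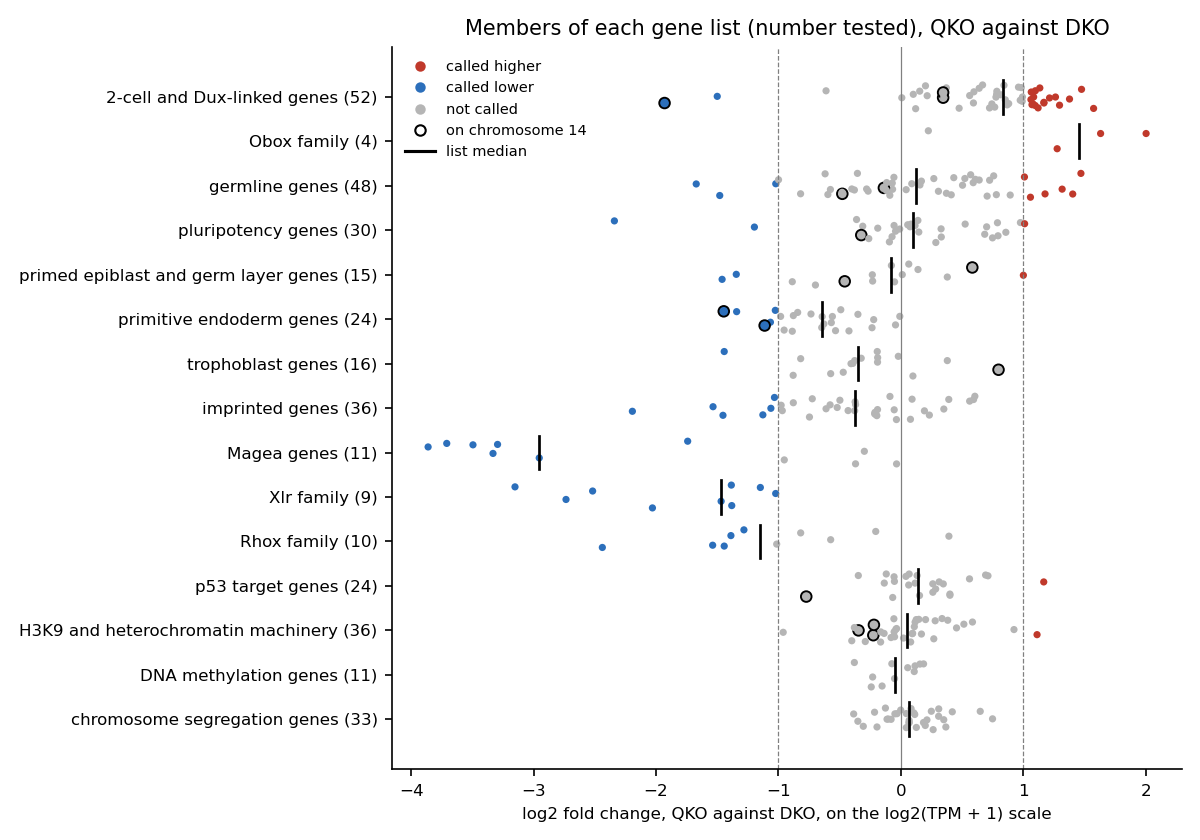
Log2 fold change of QKO against DKO (horizontal axis, log2(TPM + 1) scale) for the members of 15 gene lists (rows, number tested in brackets), red where called higher, blue where called lower, black outline on chromosome 14, black bar for the list median. The 2-cell and Dux-linked list lies to the right with a median of 0.83, and the Magea, Xlr and Rhox families lie to the left.

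Many genes of the 2-cell embryo were higher in QKO. Of 52 listed 2-cell and Dux-linked genes, 17 were called higher and 2 lower, against 1.58% and 1.93% of all members, and 33 were not called, with a median log2 fold change of 0.83. In 44 of the 52 both QKO libraries lay above both DKO libraries, and in 3 both lay below, against 23.1% and 25.9% of all members. Without chromosome 14 the counts were 17 higher and 1 lower of 49. Such genes are active in few cells of a culture, and in bulk RNA more 2-cell-like cells and more RNA per cell cannot be told apart. The list was chosen with earlier results of these data known, so its direction is a description. Many of its genes are near-identical copies (Zscan4, Usp17-like, Tdpoz, Tcstv, PRAME, Obox and Duxbl genes), and the treatment of reads shared by copies was not stated by the sources, so family sums are steadier than single names.

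Dux itself, the factor at the head of this program, measured 16.3 and 15.9 TPM in DKO and 25.7 and 21.8 TPM in QKO, against 0.971 and 1.15 TPM in the control line. Its libraries did not overlap, but the log2 fold change of 0.53 (SE 0.12, adjusted p = 0.00606) was below the size needed for a call. The 5 Zscan4 genes, zinc finger and SCAN domain factors that act at telomeres in 2-cell-like cells, summed to 2205 and 2416 TPM in DKO and to 4856 and 4917 TPM in QKO. Of the 5, 4 were called higher. Zscan4f (chromosome 7, 11397915 to 11402318, plus strand, mm10) rose from 861 and 937 TPM to 1891 and 1906 TPM (log2 fold change 1.08, SE 0.14, adjusted p = 0.000112). Zscan4d went from 333 and 315 TPM to 610 and 683 TPM, and its log2 fold change of 0.99 missed the size threshold while its libraries did not overlap. In Dux-KO QKO all 5 together summed to 2.14 and 1.42 TPM, below the control line's 82.8 and 92.3 TPM.

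The 5 Usp17-like genes, which encode deubiquitinating enzymes, summed to 625 and 700 TPM in DKO and 1556 and 1438 TPM in QKO, and 4 were called higher. Usp17lb (chromosome 7, 104840257 to 104842603, minus strand) rose from 259 and 246 TPM to 542 and 538 TPM (log2 fold change 1.10, SE 0.12, adjusted p = 1.91e-05). The promoters of Zscan4d and Usp17lb are shown for a TATA-type motif that several of the 2-cell genes called higher hold. The motif was picked after the sequences were seen. Searching the 180-base window for TATAAAA on both strands found it in 6 of the 10 2-cell genes called higher with a RefSeq entry (60%). It lay in 1.68% of the 9716 members with an entry and in 3.29% of all 32851 promoter windows. Zscan4d was not called and is not among the 10. Several of the 10 are near copies of one another, so they are not independent, and a match is not a binding site. Both windows are given 5′ to 3′ on the gene's strand, with TATAAAA in capitals, from chr7:11166119-11166298 (minus strand) for Zscan4d and chr7:104842554-104842733 (minus strand) for Usp17lb.
Zscan4d: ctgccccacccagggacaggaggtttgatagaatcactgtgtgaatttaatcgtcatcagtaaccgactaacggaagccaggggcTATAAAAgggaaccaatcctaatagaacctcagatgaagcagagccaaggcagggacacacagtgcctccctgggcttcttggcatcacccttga
Usp17lb: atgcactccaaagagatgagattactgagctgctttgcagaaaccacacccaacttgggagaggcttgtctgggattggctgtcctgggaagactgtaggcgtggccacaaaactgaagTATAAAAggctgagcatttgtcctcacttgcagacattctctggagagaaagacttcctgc

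Obox4 is a homeobox gene of a family expressed in the oocyte and early embryo. Leaving out predicted and uncharacterised genes, it had the largest rise among called members. It rose from 167 and 220.02 TPM to 842 and 706 TPM (log2 fold change 2.00, SE 0.14, adjusted p = 4.16e-07), with 40.2 and 40.8 TPM in Dux-KO QKO. Obox2 went from 0.0582 and 0 TPM to 1.93 and 2.46 TPM, and Obox3 from 0.881 and 0.391 TPM to 3.49 and 2.42 TPM. Obox2 and Obox3 were also called higher, but both passed the filter on low values only through QKO, so their calls add nothing to the rise of Obox4. Obox6 measured 4.79 and 6.41 TPM in DKO and 5.76 and 7.66 TPM in QKO, which overlapped.

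PRAME-like genes, which encode leucine-rich repeat proteins of germ cells and early embryos, behaved unevenly. Pramef25 rose from 67.6 and 67.5 TPM to 199.8 and 179.9 TPM (log2 fold change 1.48, SE 0.13, adjusted p = 2.39e-06), and Pramef17 from 13.9 and 16.5 TPM to 49.0 and 49.1 TPM. In Dux-KO QKO Pramef25 stood at 6.02 and 7.62 TPM. Pramel7, in contrast, rose from 15.5 and 18.2 TPM to 37.6 and 40.5 TPM and stood at 78.3 and 71.5 TPM in Dux-KO QKO. Pramel3, on the X chromosome, fell from 9.51 and 12.1 TPM to 3.06 and 3.23 TPM (log2 fold change -1.50, SE 0.16, adjusted p = 2.04e-05). Among the single-copy genes of the list, Sp110, a nuclear body protein, rose from 6.66 and 7.25 TPM to 27.5 and 18.6 TPM (log2 fold change 1.57, SE 0.19), and its neighbour Sp140 from 3.802 and 4.34 TPM to 17.1 and 14.3 TPM. Zfp352, a retrotransposed zinc finger gene and 2-cell marker, rose from 43.5 and 59.5 TPM to 111 and 107 TPM. The other fall in the list was Duxbl1 on chromosome 14, from 3.04 and 2.60 TPM to 0 in both QKO libraries, and it passed the filter only through DKO. Duxbl2 and Duxbl3, also listed and on chromosome 14, had the same values as each other. Their means were 21.0 TPM in DKO and 26.8 TPM in QKO (log2 fold change 0.35), and they were not called.

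**Figure D3:**
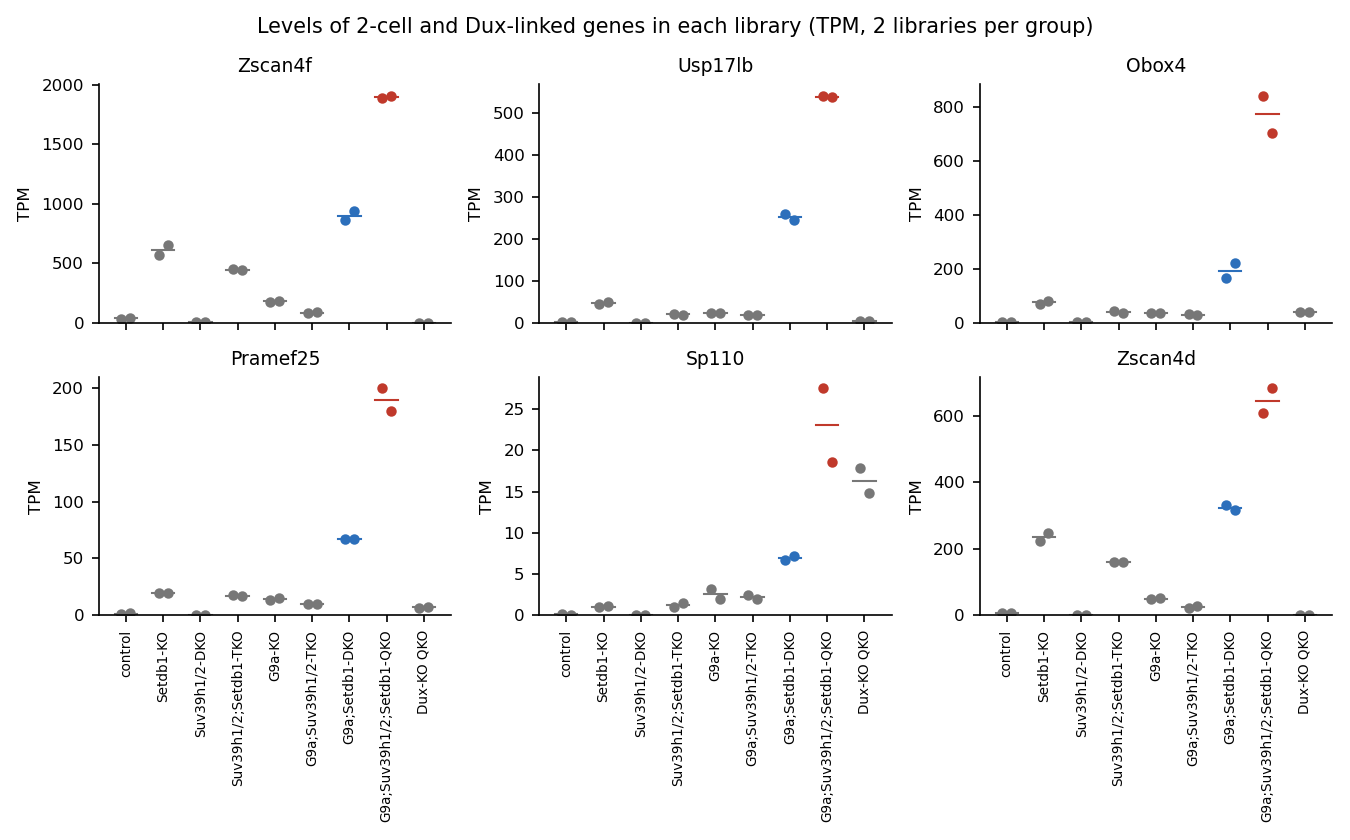
TPM (vertical axis, linear from 0) of 6 2-cell and Dux-linked genes in each library (points) of the 9 groups of the first table (horizontal axis), with the group mean as a bar, DKO in blue and QKO in red. For Zscan4f both QKO libraries (1891 and 1906 TPM) lie above both DKO libraries (861 and 937 TPM), and the Dux-KO QKO libraries lie below 1 TPM.

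The X-linked Magea genes, which were on in G9a-deficient groups, fell in QKO, and the Mageb genes were not called. Of 11 Magea and Mageb members, whose human relatives encode partners of ubiquitin ligases in testis and tumours, 7 were called lower and none higher, with a median log2 fold change of -2.95. In 10 both QKO libraries lay below both DKO libraries. Among all members 1.93% were called lower and 25.9% lay below in this way. Summed, the 11 genes stood at 44.8 and 50.2 TPM in the control line, 665 and 672 TPM in DKO and 118 and 141 TPM in QKO. Magea8 (X chromosome, 154985775 to 154995850, minus strand) fell from 200.5 and 180.0 TPM to 15.6 and 20.6 TPM (log2 fold change -3.33, SE 0.13, adjusted p = 9.04e-10). Magea2 fell from 139 and 133 TPM to 6.59 and 10.7 TPM (log2 fold change -3.86, SE 0.18, adjusted p = 3.67e-09), and Magea10 from 10.1 and 9.17 TPM to 0.328 and 0.417 TPM (log2 fold change -2.95, SE 0.15). Magea10 passed the filter only through DKO. Mageb16, which stood at 44.3 and 49.6 TPM in the control line, measured 64.2 and 83.0 TPM in DKO and 66.7 and 76.1 TPM in QKO, and these overlapped.

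Magea8 also differed among the other groups. It was at 0.0516 and 0 TPM in the control line, 165 and 186 TPM in G9a-KO, 26.4 and 29.3 TPM in G9a;Suv39h1/2-TKO, and 132 and 135 TPM in Dux-KO QKO, a group that also lacks Suv39h1 and Suv39h2. Remaining Ehmt2 transcript in the same libraries was 15.6 and 14.6 TPM in G9a-KO, 30.2 and 22.7 TPM in G9a;Suv39h1/2-TKO, and 14.2 and 12.4 TPM in Dux-KO QKO. Among the 5 G9a-deficient groups of the first table, Magea8 was lowest in QKO and G9a;Suv39h1/2-TKO, where Ehmt2 was highest. The part of the Ehmt2 level in the Magea falls was not tested.

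Promoters of 3 of the fallen genes are shown for the sequence they share. The motif GCCATTTT, picked by eye in these promoters and searched on both strands, lies in 3 of the 7 fallen Magea promoters. It lies in 6 of the 46 X-linked fallen genes with an entry (13.0%), against 1.51% of members with an entry and 0.947% of all windows. The 6 include the 3 promoters in which the motif was picked, so these shares are a description and test nothing. The Magea2 and Magea8 windows are near copies, identical at 158 of 165 aligned positions, and Magea8 and Magea10 at 101 of 157. The windows, 5′ to 3′ with the motif in capitals, are chrX:154995821-154996000 for Magea8, chrX:155033263-155033442 for Magea2 and chrX:72386829-72387008 for Magea10, all on the minus strand of GRCm38.p6.
Magea8: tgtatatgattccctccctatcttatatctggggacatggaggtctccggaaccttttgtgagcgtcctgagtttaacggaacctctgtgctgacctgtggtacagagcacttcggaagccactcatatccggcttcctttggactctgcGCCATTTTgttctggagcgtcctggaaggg
Magea2: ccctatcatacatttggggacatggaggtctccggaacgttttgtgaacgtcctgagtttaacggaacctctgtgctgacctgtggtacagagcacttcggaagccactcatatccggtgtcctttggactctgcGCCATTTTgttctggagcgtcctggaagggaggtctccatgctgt
Magea10: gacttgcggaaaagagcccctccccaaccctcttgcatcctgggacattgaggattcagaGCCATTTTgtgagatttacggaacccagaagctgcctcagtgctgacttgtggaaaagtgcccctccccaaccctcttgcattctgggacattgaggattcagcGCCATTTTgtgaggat

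Members of further X-linked families were also called lower. These 3 families were grouped by name after their values were seen, and 1.93% of all members were called lower. All 9 Xlr3, Xlr4 and Xlr5 members, which encode relatives of a synaptonemal complex protein, were called lower, with a median log2 fold change of -1.47 and sums of 415 and 438 TPM in DKO and 108 and 123 TPM in QKO. Xlr5a fell from 31.6 and 32.9 TPM to 2.20 and 3.37 TPM (log2 fold change -3.15, SE 0.15, adjusted p = 4.93e-09), and Xlr5b from 58.8 and 66.0 TPM to 7.06 and 10.2 TPM. The gene Xlr itself, at 3.14 and 5.26 TPM in DKO and 2.56 and 3.25 TPM in QKO, overlapped and was not called. In Dux-KO QKO the 9 Xlr members summed to 126 and 136 TPM, above both QKO libraries, although Xlr5b was at 0.691 and 0 TPM there. Of 10 Rhox members, homeobox genes of the reproductive tract, 5 were called lower, of which Rhox2b and Rhox2g passed the filter only through DKO. Rhox2a fell from 20.5 and 18.3 TPM to 2.702 and 2.81 TPM (log2 fold change -2.44, SE 0.16), whereas the most abundant member, Rhox5, measured 414 and 352 TPM in DKO and 286 and 229.5 TPM in QKO and was not called. Of the 6 Armcx genes, which encode mitochondrial proteins, 3 were called lower, among them Armcx3, from 10.6 and 12.2 TPM to 3.96 and 4.68 TPM. The remaining 33 X-linked falls belong to none of the 4 families.

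**Figure D4:**
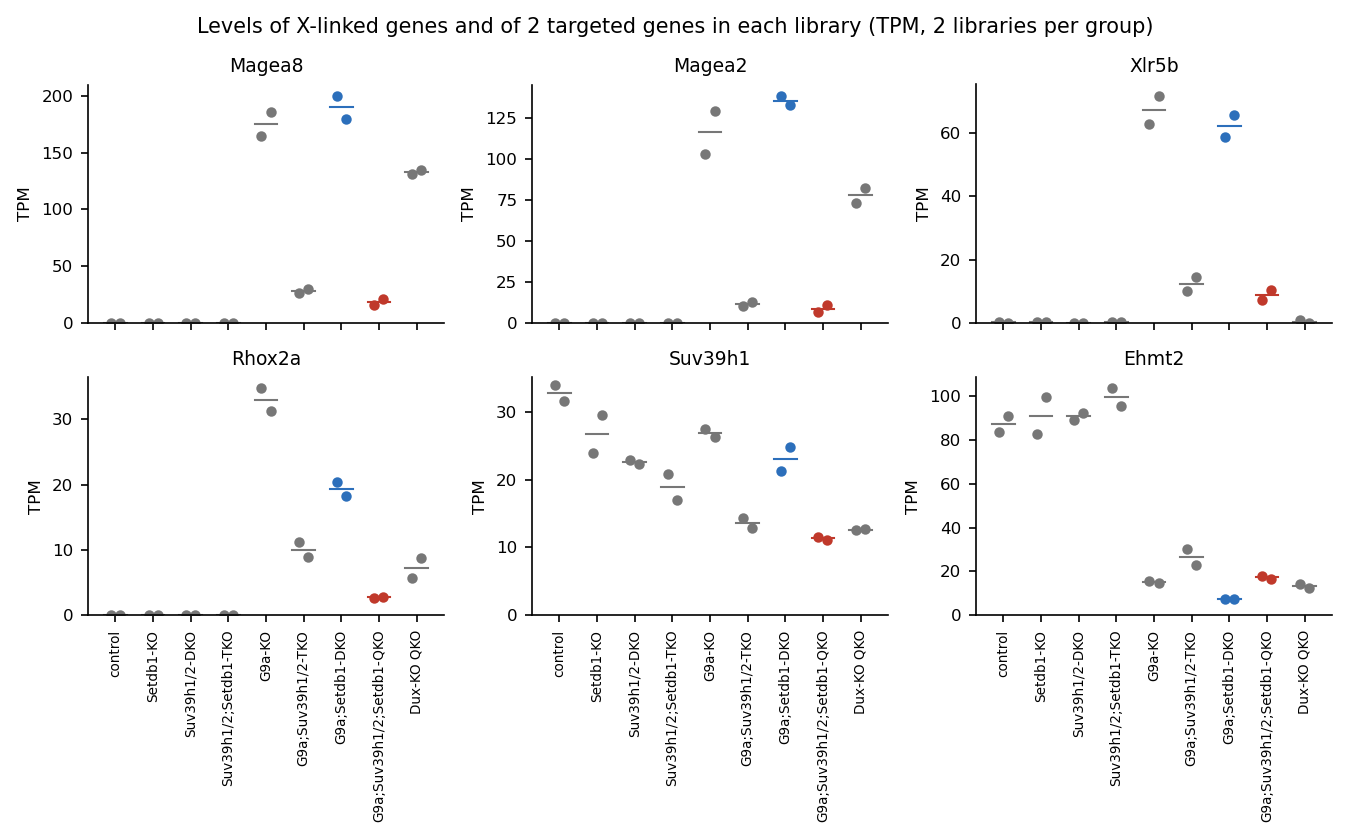
TPM (vertical axis, linear from 0) of 4 X-linked genes and the targeted genes Suv39h1 and Ehmt2 in each library (points) of the 9 groups of the first table, with the group mean as a bar, DKO in blue and QKO in red. Magea8 stands at 180.0 and 200.5 TPM in DKO, at 15.6 and 20.6 TPM in QKO and at 132 and 135 TPM in Dux-KO QKO.

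Listed germline genes moved in both directions. Of 48 listed members 6 were called higher and 3 lower, against 1.58% and 1.93% of all members, and the median log2 fold change was 0.12. Of the rises 4 were meiotic and 2 were piRNA genes. Of the 18 meiotic members none was called lower, and their median log2 fold change was 0.40. Of the 14 piRNA members 1, Tex19.2, was called lower, and their median was -0.20. Both QKO libraries lay above both DKO libraries in 4 of those 14 and below in 7. Hormad1, of the meiotic chromosome axis, rose from 36.7 and 56.8 TPM to 108 and 139 TPM (log2 fold change 1.404, SE 0.20, adjusted p = 0.000192). Mael, of the piRNA pathway, rose from 25.6 and 24.4 TPM to 63.7 and 63.8 TPM, and Dmc1, the meiotic recombinase, from 2.21 and 3.00 TPM to 9.16 and 8.70 TPM. Stag3, the meiotic cohesin, went from 8.53 and 8.96 TPM to 22.6 and 19.6 TPM, with Mov10l1 and Msh5 also called higher. Tex19.2 fell from 14.4 and 10.9 TPM to 3.07 and 3.44 TPM (log2 fold change -1.67, SE 0.16), and Nanos3 and Pdha2 were the other falls. Tex19.1, at 223 and 200 TPM in DKO and 151 and 133 TPM in QKO, was not called. Msh5 passed the filter only through QKO.

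Of 36 imprinted members 6 were called lower and none higher, against 1.93% and 1.58% of all members, with a median log2 fold change of -0.37. Cdkn1c, a maternally expressed cell cycle inhibitor, fell from 52.2 and 53.3 TPM to 12.01 and 9.61 TPM (log2 fold change -2.19, SE 0.15, adjusted p = 3.1e-07). H19, a maternally expressed long non-coding RNA (chromosome 7, 142575529 to 142578143, minus strand), fell from 82.3 and 82.8 TPM to 29.3 and 26.5 TPM (log2 fold change -1.53, SE 0.11). The paternally expressed Mest went from 176 and 245 TPM to 76.8 and 73.8 TPM, and Peg3 from 89.9 and 138 TPM to 55.8 and 52.3 TPM. Rian, a non-coding RNA of the Dlk1 domain, went from 120.03 and 137 TPM to 55.8 and 60.5 TPM, and its control level was 0.183 TPM. Zim2, at 1.31 and 1.42 TPM in DKO, was the remaining fall and passed the filter only through DKO. Among uncalled members, Grb10, Usp29 and Inpp5f had positive log2 fold changes of 0.60, 0.59 and 0.56 at an adjusted p below 0.05. Peg10, at 139.7 and 210.4 TPM in DKO and 198 and 205 TPM in QKO, overlapped.

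The primitive endoderm is an extraembryonic lineage that can arise spontaneously in stem cell cultures. Of 24 of its genes 5 were called lower, against 1.93% of all members, and none higher, with a median log2 fold change of -0.64. In 20 both QKO libraries lay below both DKO libraries, against 25.9% of all members. Gata4 fell from 43.9 and 44.8 TPM to 17.1 and 14.3 TPM (log2 fold change -1.45, SE 0.14, adjusted p = 8.61e-06), and Sox7 from 12.1 and 15.8 TPM to 5.61 and 6.11 TPM, but these 2 factors lie on chromosome 14. Off chromosome 14, Serpinh1, a collagen chaperone, fell from 272 and 278 TPM to 127 and 91.9 TPM (log2 fold change -1.34, SE 0.15), and the laminin chain Lama1 from 80.1 and 111 TPM to 52.6 and 37.7 TPM. Lama1 lost its call without QKO replicate 2 or without DKO replicate 2 (log2 fold change -0.83 each). Amn was the fifth. Gata6, uncalled, measured 43.8 and 47.9 TPM in DKO and 24.4 and 21.1 TPM in QKO, which did not overlap. The number called was 3 of 22 without chromosome 14, 3 without QKO replicate 2 or without DKO replicate 2, and 8 without QKO replicate 1. The 5 defining markers summed to 147 and 172 TPM in DKO and 94.1 and 83.7 TPM in QKO, and whether fewer endoderm-like cells were present was not tested.

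Pou5f1, Sox2, Nanog, Zfp42 and Esrrb were not called. Of 30 members 1 was called higher and 2 lower, against 1.58% and 1.93% of all members, with a median log2 fold change of 0.10. Lefty1, an inhibitor of Nodal, fell from 90.3 and 88.7 TPM to 19.98 and 14.2 TPM (log2 fold change -2.34, SE 0.17, adjusted p = 4.16e-07), and its neighbour Lefty2 from 32.6 and 39.2 TPM to 15.4 and 14.6 TPM. Fbxo15 rose from 576 and 566 TPM to 1172 and 1131 TPM at a log2 fold change of 1.01, and lost its call without QKO replicate 1 (0.98) or without DKO replicate 2 (0.998). Pou5f1, the central factor, measured 2621 and 2403 TPM in DKO and 2193 and 1996 TPM in QKO. Of 15 primed epiblast and germ layer genes 2 were called lower: Foxa2 (4.28 and 5.38 TPM to 0.993 and 1.23 TPM) and Nes (12.7 and 19.3 TPM to 5.64 and 5.49 TPM). Of 16 trophoblast genes only Rhox6 was called, lower, and it was not called with a pseudocount of 0.1.

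Some genes of cell contact and the cytoskeleton changed, in 2 lists written after their values were seen and therefore given as descriptions. Most members of either list were not called, and of all members 1.58% were called higher and 1.93% lower. Of 23 epithelial junction genes 3 were called higher: Cdh1, the epithelial cadherin, from 62.5 and 93.1 TPM to 222 and 179.8 TPM, Cldn6 from 5.59 and 6.92 TPM to 23.2 and 14.2 TPM, and Ap1m2 from 5.50 and 5.84 TPM to 18.4 and 17.1 TPM. Of 23 mesenchymal and cytoskeletal genes 4 were called lower: Vim, from 469 and 499 TPM to 229 and 189 TPM, Lgals1, S100a6 and Tagln.

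Several of the largest rises were in none of the lists. Nphs1, which encodes nephrin, rose from 13.8 and 16.3 TPM to 62.0 and 49.6 TPM (log2 fold change 1.82, SE 0.14, adjusted p = 5.9e-07), and Mapk13, a p38 kinase, from 4.52 and 4.92 TPM to 17.3 and 16.4 TPM. A2m, a protease inhibitor, went from 0.912 and 1.49 TPM to 7.33 and 5.75 TPM, and Slc1a1, a glutamate transporter, from 1.13 and 1.74 TPM to 6.39 and 6.62 TPM. In Dux-KO QKO Nphs1 stood at 60.9 and 55.3 TPM and A2m at 8.84 and 6.45 TPM. Sva, Spinkl, Stfa1 and Wfdc10 were called at low levels, with at most 14.1 TPM in any of the 4 libraries. The predicted gene Gm10662, named here after its value was seen, had the largest rise among called members, from 1.87 and 1.70 TPM to 46.8 and 46.4 TPM.

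The falls outside the X chromosome were led by chromosome 14. Pnp2, a purine nucleoside phosphorylase gene, fell from 19.6 and 17.3 TPM to 0.241 and 0 TPM (log2 fold change -4.12, SE 0.18, adjusted p = 2.04e-09), and was at 0 in both G9a;Suv39h1/2-TKO and both Dux-KO QKO libraries, against 15.8 and 13.9 TPM in the control line. Pnp2 passed the filter on low values only through DKO. Rpph1, the RNase P RNA, stood at 200.04 and 103 TPM in DKO and 4.52 and 13.7 TPM in QKO. Being a non-polyadenylated RNA, it is captured only in part by poly(A) selection. Rcbtb2 fell from 12.8 and 14.2 TPM to 1.92 and 1.97 TPM and Sox21 from 21.7 and 20.8 TPM to 3.53 and 3.58 TPM, both larger than the median of chromosome 14. Cphx1 varied between replicates, 33.59 and 10.8 TPM in DKO and 0.00612 and 0.938 TPM in QKO, and lost its call with a pseudocount of 0.1 and without QKO replicate 1, without QKO replicate 2 or without DKO replicate 1. Cphx1, too, passed the filter only through DKO. Off chromosome 14, Pla2g7, a lipase, fell from 9.995 and 13.1 TPM to 2.12 and 1.12 TPM.

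Chromatin regulators showed few calls, and of all members 1.58% were called higher and 1.93% lower. Ehmt2 was the only called gene of 36 in the H3K9 and heterochromatin list, whose median log2 fold change was 0.05, with Trim28 at 749 and 756 TPM in DKO and 923 and 751 TPM in QKO, and Cbx3 at 210.3 and 315 TPM and then 242 and 313 TPM. None of 11 DNA methylation genes, 13 members of the PRC1.6 complex that silences germline genes, 33 chromosome segregation genes, 16 interferon and nucleic acid sensing genes, 21 ATF4 and serine synthesis genes or 31 proteasome genes was called in either direction. Their median log2 fold changes were -0.05, -0.05, 0.07, -0.11, -0.15 and -0.18. Of 24 p53 targets Pmaip1 was called higher (49.9 and 84.0 TPM to 143 and 150.0 TPM), and not without DKO replicate 1 (log2 fold change 0.80). Of 25 cyclins and kinases Cdk6 was called higher and the inhibitor Cdkn1c lower. Among 12 matrix metalloproteinases only Mmp14, on chromosome 14, was called, lower. Among 7 fibroblast markers Vim and Tagln were called lower. Of 17 nuclear-retained non-coding RNAs Tsix was called higher (10.9 and 17.1 TPM to 32.7 and 29.0 TPM), except without DKO replicate 1, and Rian lower. That list had a median log2 fold change of 0.41.

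Pairs of groups that differ by the same loss, and also by line name, were then read on other backgrounds. On G9a-KO, where Setdb1 is present and no library is shared with QKO against DKO although the SG and 3S1G lines are, 67 members were higher (0.523%) and 150 lower (1.17%). Of the 248 falls in QKO, 72 (29.0%) were also among those 150 (48%), 37 of them on the X chromosome and 16 on chromosome 14. Of the 202 rises, 19 (9.41%) were among those 67 (28.4%). Magea8 fell by 2.61 and Xlr5a by 2.53 on the log2 scale on G9a-KO as well, and 7 of 11 Magea and 9 of 9 Xlr members were called lower there. On Setdb1-KO, 5 members were higher (0.039%) and 8 lower (0.0624%), and on the control background 19 were higher (0.148%) and 54 lower (0.421%).

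The 2-cell genes went the other way without the DKO background. On G9a-KO 1 of the 52 listed genes was called higher and 6 lower, with a median log2 fold change of -0.24. On Setdb1-KO none was higher and 2 lower (median -0.37), and on the control background none was higher and 11 lower (median -0.34). Of all members 0.523%, 0.039% and 0.148% were called higher on these backgrounds in turn, and 1.17%, 0.0624% and 0.421% lower. Zscan4f changed by a log2 fold change of -1.10 on G9a-KO (adjusted p = 0.000179) and -3.22 on the control background, against 1.08 on DKO. The difference between the effect on DKO and that on G9a-KO was tested as an interaction: 186 members were called more positive on DKO (1.45%) and 99 more negative (0.772%), and 25 of the 52 2-cell and Dux-linked genes were among the former and none among the latter. For Zscan4f the difference was 2.18 (adjusted p = 2.89e-05) and for Obox4 2.27 (adjusted p = 2.15e-05). For Magea8 it was -0.72 (adjusted p = 0.0416) and for Xlr5a -0.63 (adjusted p = 0.122), below the size needed for a call. Of the 11 Magea genes 1, Magea10, was called in this difference (-1.03), and of the 9 Xlr genes none. The same test against the effect on Setdb1-KO called 216 members more positive (1.68%) and 277 more negative (2.16%), and against the effect on the control background 286 (2.23%) and 286 (2.23%). Without chromosome 14 the counts were 180 and 95 against G9a-KO, 216 and 232 against Setdb1-KO, and 286 and 253 against the control background. Among imprinted genes H19 was called in the difference from G9a-KO, having gone up by a log2 fold change of 0.78 on G9a-KO.

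In the lines without endogenous Dux the 2-cell rise was not seen at the size of the first table. That second table was normalised separately, so its values are read only within it. At dox label 0, 74 of 12709 members tested were higher in QKO (0.582%) and 146 lower (1.15%), and at dox label 1 there were 61 (0.48%) and 112 (0.881%). The scaling moves this split: after median-ratio scaling the counts were 103 higher and 114 lower at dox label 0 and 113 and 102 at dox label 1. Replicate 2 of DKO stood apart at both labels, with a mean log2 level of small nucleolar RNA host genes of 5.16 and 5.21 against 2.88 and 2.89 in replicate 1 and 3.40 to 3.62 in QKO. Without that library the counts were 119 higher and 147 lower at dox label 0, and 69 and 80 at dox label 1. Chromosome 14 was low here too (median -0.61 at either label), and chromosome 8 was high (0.20 and 0.23). Without the genes of both, the falls at dox label 1 numbered 66.

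Of the 51 2-cell genes tested there, 2 were called higher at dox label 0 (Pramel7 and Usp17la) and none at dox label 1, with median log2 fold changes of -0.10 and -0.72. These medians moved to 0.36 and 0.00 without DKO replicate 2, so their sign rests on that library. Zscan4f was at 17.9 and 35.0 TPM in DKO and 33.9 and 27.7 TPM in QKO at dox label 0, and at 930.4 and 2255 TPM and then 1238 and 1362 TPM at dox label 1, overlapping each time. The TetOnDux transgene was called at neither label (log2 fold changes -0.46 and -0.28), nor was the MERVL-sfGFP reporter (-0.68 and -1.15). Suv39h1 was called lower at both labels (-1.34 and -1.40), with 15.0 and 23.1 TPM in DKO and 7.42 and 6.17 TPM in QKO at dox label 0. Ehmt2 did not separate the groups, at 2.90 and 6.58 TPM in DKO and 4.02 and 4.13 TPM in QKO.

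The Magea fall was absent from the calls in these lines. Magea8 measured 121 and 136 TPM in DKO and 159 and 157 TPM in QKO at dox label 0, and the 11 members had 0 called and a median log2 fold change of 0.30. At dox label 1 the median was 0.33 with 1 called lower, Mageb4. Of the 9 Xlr genes 3 were called lower at each label, against 1.15% and 0.881% of all members tested. Their median log2 fold changes were -0.68 at dox label 0 and -0.66 at dox label 1. Without DKO replicate 2 these medians were -0.16 and -0.24, so their size rests largely on that library. Xlr5b went from 13.1 and 16.02 TPM to 4.62 and 4.01 TPM at dox label 0 (log2 fold change -1.55, adjusted p = 0.00476). The imprinted list was mixed, with 3 of 34 called higher (H19, Peg10 and Peg13) and 1 lower (Igf2) at dox label 0. H19 went from 30.2 and 90.2 TPM to 347 and 224 TPM, the opposite of its fall in the first table, and lost its call without QKO replicate 1, without QKO replicate 2 or without DKO replicate 1. The de novo DNA methyltransferase Dnmt3a rose from 18.7 and 20.7 TPM to 57.9 and 74.99 TPM (log2 fold change 1.69, adjusted p = 0.00169), whereas with endogenous Dux present it measured 67.4 and 85.8 TPM in DKO and 75.6 and 71.2 TPM in QKO. Calcoco2, an autophagy receptor, rose from 24.5 and 42.6 TPM to 167 and 150.3 TPM.

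**Figure D5:**
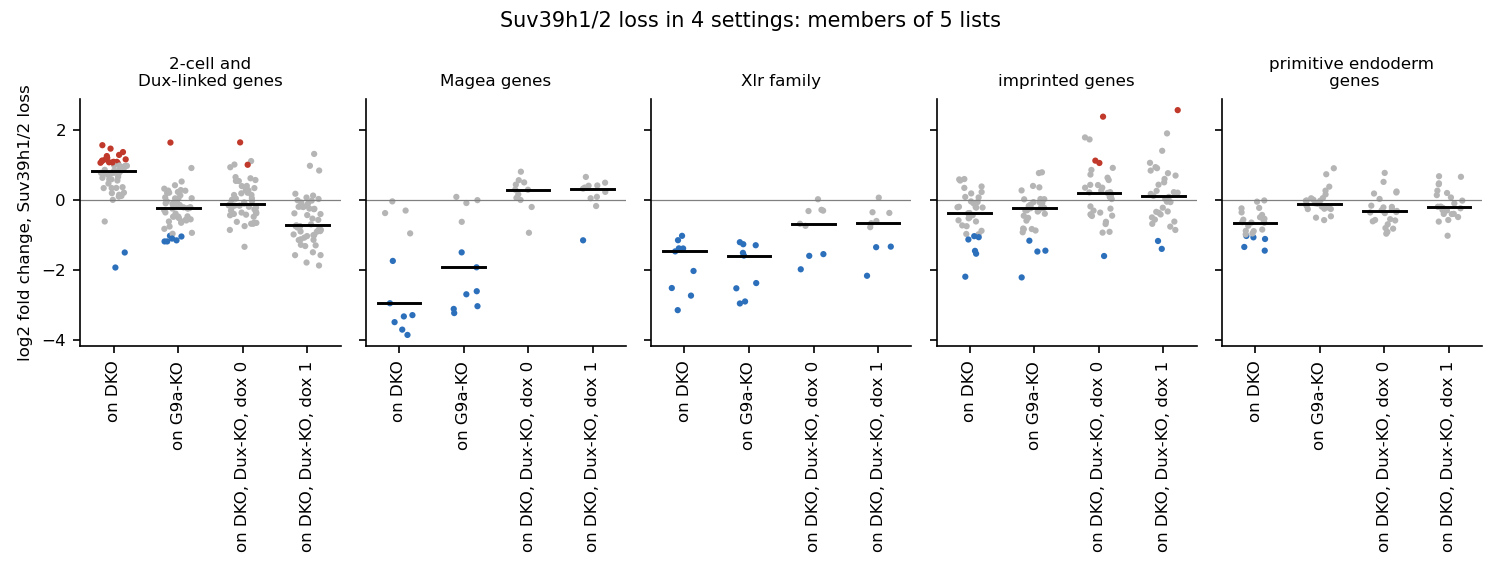
Log2 fold change on Suv39h1/2 loss (vertical axis, log2(TPM + 1) scale) for the members of 5 lists (panels) in 4 settings (horizontal axis), red where called higher, blue where called lower, grey where not called, black bar for the median. The 2-cell and Dux-linked median is 0.83 on DKO and -0.24 on G9a-KO, and the Magea median is -2.95, -1.92, 0.30 and 0.33 from left to right.

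Genes called the same way in all 4 of these comparisons (on DKO, on G9a-KO and on DKO without endogenous Dux at either label) numbered 2 higher and 9 lower. The higher ones were Gm10662 and 2810047C21Rik1, both on chromosome 7. Of the 9 lower ones 5 lay on chromosome 14 (Pnp2, Rcbtb2, Mmp14, 1700047E10Rik and 4930503E14Rik) and 4 on the X chromosome (Sh3bgrl, Xlr5a, Xlr5b and Xlr5c). The line name 3S1G was common to the QKO and G9a;Suv39h1/2-TKO groups of the first table, so genotype and line cannot be told apart in these calls.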

How the data were processed

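RNA was measured in 50 libraries of mouse embryonic stem cells (poly(A)-selected, stranded, 150 nt paired reads, per the labels' protocols). The authors deposited TPM values in 2 tables, of 18 libraries in 9 groups and 32 libraries in 16 groups, with 2 libraries per group. STAR 2.7.10b, Bowtie2 2.3.4.1, RSEM 1.3.1, SAMtools 1.9 and mm10 are listed in the submitters' processing notes, without their roles. TPM sums to the same total in each library, so a rise in abundant genes lowers all others, and depth is unknown.

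From these values log2(TPM + 1) was fitted with limma 3.58.1 (trend option, R 4.3.3) over all groups of a table, so that groups share 1 estimate of spread (9 and 16 residual degrees of freedom). Benjamini-Hochberg adjustment covered the 13862 and 13819 genes tested. Calls required an adjusted p under 0.05 and a log2 fold change of 1 or more in size. Genes were named by rule: the targeted genes, the 12 largest rises and falls with separate libraries and no predicted name (at most 2 per family), and up to 4 called members per direction plus the 2 most abundant uncalled members of each list. Any other gene named was chosen after its values were seen. Members, lists and motifs were chosen with earlier results of these data known. On simulated data for QKO against DKO (13862 genes), 64 of 65 genes changed by 1.5 log2 units, 74 of 74 by 2 and 61 of 61 by 3 were called, and 0 of 13662 unchanged genes. For the lines without endogenous Dux at dox label 0 (13819 genes), 47 of 56, 72 of 76 and 68 of 68 were called, and 8 of 13619 unchanged genes. The changed genes were drawn only from those with a mean log2(TPM + 1) above 2. The noise was independent and normal, with the spread of the fit. Changes in genes at lower levels, and shifts shared within a library or line, were therefore not covered. Alternatives were another pseudocount (0.1), no filter on low values, median-ratio scaling, a replicate block, leaving out each library, fitting the 4 libraries alone, and leaving out chromosome 14 (and chromosome 8 in the second table); the removal of chromosomes was chosen after seeing the data. Promoter windows came from RefSeq (GRCm38.p6). Results for a few genes are not reported here.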

Additional observations from a re-analysis of the deposited data

Results flagged for a closer look

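The change that went with Suv39h1/2 loss differed between backgrounds by tests of the difference itself (limma interaction terms with Benjamini-Hochberg adjustment). Each such change also holds any other difference between the lines compared. Positive values mean a more positive effect on DKO. Against the effect on G9a-KO, 186 members were more positive on DKO and 99 more negative. Akr1c21, an aldo-keto reductase, differed by 4.59. It rose on DKO, from 134 and 155 TPM to 406 and 465 TPM, and stood at 23.7 and 25.3 TPM in G9a-KO and 1.79 and 2.63 TPM in G9a;Suv39h1/2-TKO. The homeobox gene Cphx2 differed by 4.22, a call lost with a pseudocount of 0.1 (adjusted p = 0.116). The protease gene Mep1b differed by 2.96 and the lectin gene Clec2i by 2.89. On the negative side were Pnliprp2, a lipase relative (-2.51), the ATP receptor P2rx7 (-2.48), H19 (-2.31) and BC051019 (-2.29).

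Against the effect on Setdb1-KO, 216 members were more positive and 277 more negative. Obox4 (2.91), Wfdc10 (2.86), BB287469 (2.42) and Usp17lb (2.28) led the former. Pnp2 on chromosome 14 (-4.11), Magea2 (-3.89), Rpph1 on chromosome 14 (-3.89) and Magea3 (-3.71) led the latter. Of these, Pnp2 is a member only through DKO. Against the effect on the control background, 286 members were more positive and 286 more negative. The former were led by Zscan4f (4.30), Zscan4b (4.03), Obox4 (3.72) and BB287469 (3.52), and the latter by Pnp2 (-4.52), Rpph1 (-4.02), Magea2 (-3.86) and Magea3 (-3.71). Magea2 and Magea3 are near 0 on both of these backgrounds, which keep G9a, so no fall could be measured there.

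In 4 genes called in both tables the sign was opposite in the lines without endogenous Dux at dox label 0. H19 had a log2 fold change of 2.39 there and -1.53 with endogenous Dux, and Gm773 1.78 and -1.25. Kirrel2, a nephrin relative, had -1.37 and 1.03, and A430089I19Rik -1.37 and 1.68. The tables were normalised separately and the difference was not tested.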

How the results depend on the processing

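No named gene changed sign while called. The larger side of a count did change. For QKO against DKO, a pseudocount of 0.1 gave 375 higher and 368 lower, of which 191 and 232 were among the 202 and 248. Suv39h1 then passed the size threshold (-1.02), as it did without DKO replicate 1 (-1.07); leaving out 1 library at a time gave it values from -1.07 to -0.85. Leaving out 1 library at a time gave 194 to 279 higher and 200 to 315 lower, with rises in excess without QKO replicate 2 (251 and 200) and without DKO replicate 2 (279 and 229). Without endogenous Dux it gave 57 to 119 higher and 94 to 159 lower at dox label 0, with 96 and 94 lower without QKO replicate 1 or 2 and 119 higher without DKO replicate 2. At dox label 1 it gave 49 to 69 higher and 59 lower (without QKO replicate 1) to 224 lower (without DKO replicate 1). There median-ratio scaling gave 113 higher and 102 lower, and leaving out chromosomes 8 and 14 gave 66 lower. For the difference from the effect on G9a-KO the ranges were 136 to 288 (highest without DKO replicate 2) and 68 to 152 (highest without QKO replicate 1), from that on Setdb1-KO 185 to 256 and 210 to 353, and from that on the control background 236 to 393 and 243 to 337. Causes were not tested. With the replicate number as a block, QKO against DKO gave 202 higher and 249 lower, and the lines without endogenous Dux 76 and 167 at dox label 0 and 68 and 136 at dox label 1. Same-numbered DKO and QKO libraries had correlated deviations of 0.18, 0.19 and 0.11 in these comparisons, and over 36 pairs of groups the correlation ran from -0.06 to 0.62 (median 0.27). No label says that the number marks a shared culture or day, and not every pair correlated, so the block was not used. Over all alternatives, 1535 values of named genes kept their side of the threshold, 58 lost it and 15 gained it. Of the counts per list, 449 stayed within 1.5 times and 35 did not.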
